A study of Homo sapiens with 6 samples.

Results

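The interferon receptor, Janus kinase, STAT and IRF genes were followed in PC3 prostate cancer cells with and without overexpression of GCNT1, an enzyme that builds branched O-glycans on proteins. The set was a list of gene names, chosen with earlier results of these data known: IFNAR1, IFNAR2, IFNGR1, JAK1, TYK2, STAT2, IRF1, IRF7 and IRF9. Of these 9 genes, 8 had a row among the 12703 genes of the count table. IRF7 had none, was dropped by the rule, and was not analysed here. The 2 members that rose most were IRF1 and IRF9, by 1.89-fold and 1.83-fold. IFNAR1 and STAT2 rose by less, IFNGR1 and JAK1 fell, and TYK2 did not pass the test. IFNAR2 passed it with groups that overlapped, and did not pass in 4 of 6 fits that left out a library.

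PC3 is an established human line from a bone metastasis of prostate cancer. The comparison set 3 stable lines made with a GCNT1 lentivirus against 3 lines that received negative-control particles (Lenti-ORF control), and each RNA gave 1 stranded mRNA library. Whether the lines were clones or pools is not given in the sources used here, every library derives from the same parental line, and the promoter that drove GCNT1 is not given either. The labels call the replicates biological, and the p values measure the spread between these 3 lines of each group.

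Interferons act through paired receptor chains at the cell surface. Type I interferon binds IFNAR1 and IFNAR2, which carry the kinases TYK2 and JAK1, and interferon gamma binds a receptor whose ligand-binding chain is IFNGR1. The kinases phosphorylate STAT proteins. STAT2 and IRF9 are subunits of the factor ISGF3, which turns on genes with an interferon-stimulated response element (ISRE). Interferon gamma acts through a gamma-activated site (GAS) and turns on IRF1, itself a transcription factor for a further set of interferon response genes.

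Libraries held 11392213 to 13825704 counts. Read counts were expressed as CPM, the share of a library scaled to a fixed total, with TMM factors, which adjust each library's total for its composition, and log2 fold changes are of overexpression over control. Differences were tested by the quasi-likelihood method of edgeR, with p values adjusted over all genes after Benjamini and Hochberg (BH). GCNT1 itself was at 9, 13 and 8 reads in the control libraries and 13, 16 and 35 reads in the overexpressing ones, so that 1 of the 3 overexpressing libraries held most of the difference (log2 fold change 0.98, standard error (SE) 0.37, BH-adjusted p = 0.0362, edgeR). Without that library, GCNT1 overexpression replicate 3, the log2 fold change was 0.49 (adjusted p = 0.269 in the same edgeR test). Epithelial and prostate markers had 6 of 9 genes in the table, with keratins KRT8 and KRT18 high, while KLK3 and FOLH1 were not among the rows. CDH1 and KRT19 had log2 fold changes of -1.71 and -0.68. None of the 7 leukocyte and erythroid markers was in the table. Of the 8 fibroblast and endothelial markers, 3 were in it. Their summed level was 128 to 179 CPM in controls and 48.1 to 50.6 CPM with overexpression (log2 fold changes of -1.94 for COL3A1, -0.77 for COL1A1 and 1.31 for PECAM1). The part of these markers in the results that follow was not tested.

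A gene was called when its adjusted p was under 0.05 and its absolute log2 fold change above 0.58. Of the 8 genes, 3 were called (IRF1 and IRF9 higher, IFNGR1 lower), against 19.3% of all 12703 genes, 8.28% higher and 11.1% lower. By adjusted p alone 7 of 8 passed, 5 higher and 2 lower, against 57.6% of all genes, 28.3% higher and 29.3% lower. In 6 of 8 the CPM of the 3 control libraries did not overlap that of the 3 overexpressing libraries, which was so in 62.5% of all genes. The median log2 fold change of the 8 genes was 0.40, and that of all genes tested was under 0.01. In bulk RNA a change in the share of cells with a transcript and a change in its amount per cell cannot be told apart.

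**Figure D1:**
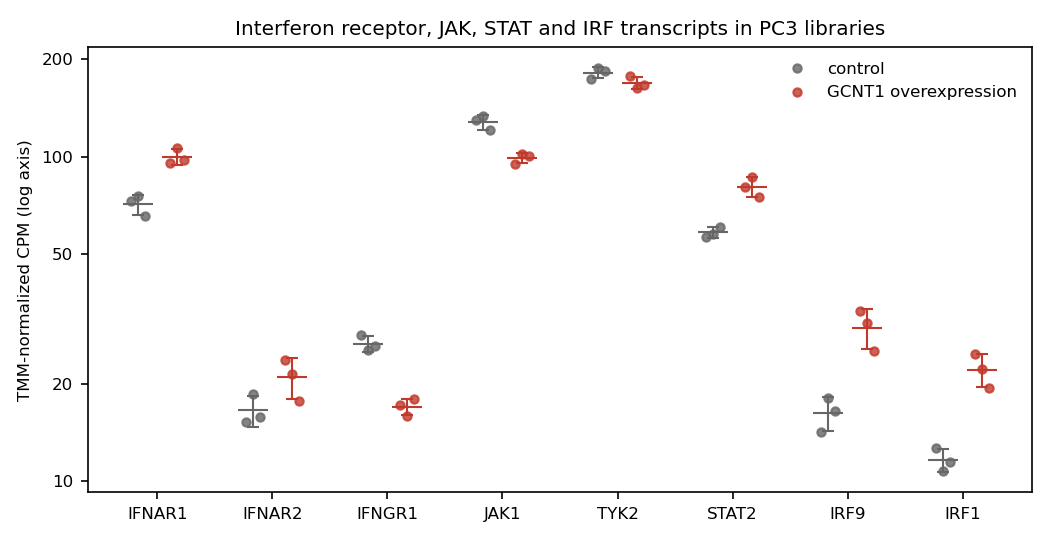
TMM-normalized CPM on a log axis of the 8 genes in the 3 control (grey) and the 3 GCNT1 overexpressing (red) libraries, with a dot for each library, and the mean and SD (n = 3) as bars. The 2 groups are apart for IFNAR1, IFNGR1, JAK1, STAT2, IRF9 and IRF1 and overlap for IFNAR2 and TYK2.

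Both chains of the type I receptor had higher transcript levels with GCNT1 overexpression. IFNAR1, the chain that carries TYK2, had 73.1, 75.5 and 65.7 CPM in controls and 95.5, 106 and 97.8 CPM with overexpression. Every overexpressing library lay above every control library. The mean rose from 71.4 ± 5.09 to 99.9 ± 5.73 CPM (SD, n = 3 each), or 0.48 as a log2 fold change (SE 0.07, BH-adjusted p = 3.50e-05, edgeR). IFNAR2, which carries JAK1, had 15.2, 18.6 and 15.8 CPM in controls and 23.7, 21.4 and 17.6 CPM with overexpression. Its groups overlapped, since overexpression replicate 3 was below control replicate 2. The log2 fold change was 0.33 (SE 0.11, BH-adjusted p = 0.0243, edgeR). With single libraries left out it ran from 0.24 (without GCNT1 overexpression replicate 1) to 0.45 (without replicate 3 of that group). Its adjusted p was over 0.05 without control replicate 1 (0.0800), control replicate 3 (0.0654), overexpression replicate 1 (0.0679) or overexpression replicate 2 (0.0559) in edgeR's test.

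IFNGR1, the ligand-binding chain of the interferon gamma receptor, went the other way, and its partner chain IFNGR2 had no row and was not analysed here. IFNGR1 had 28.1, 25.3 and 26.1 CPM in controls and 17.1, 15.9 and 17.9 CPM with overexpression, and no overexpressing library reached the control range. It fell to 16.9 ± 1.01 CPM from 26.5 ± 1.45 (SD, n = 3 each), or -0.65 as a log2 fold change (SE 0.08, BH-adjusted p = 1.94e-05, edgeR), and was called under 13 of 14 alternatives. The call rested near its threshold: the 95% interval of the log2 fold change, from -0.82 to -0.47, reaches below the minimum of 0.58 in absolute value. The exception was a single test against that minimum (glmTreat), which did not call IFNGR1 and called 2 of the 8 genes in place of 3.

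JAK1 and TYK2 are the kinases bound to these receptors. JAK1, which serves both receptor types, had 130, 134 and 121 CPM in controls and 95.1, 102 and 101 CPM with overexpression. The groups were apart by 18.5 CPM, and the log2 fold change was -0.36 (SE 0.06, BH-adjusted p = 0.000110, edgeR). TYK2, which serves the type I receptor, had 174, 187 and 184 CPM in controls and 177, 163 and 167 CPM with overexpression. These ranges overlapped, through overexpression replicate 1. The log2 fold change of TYK2 was -0.11 with a 95% interval from -0.22 to 0.01 (BH-adjusted p = 0.0939, edgeR). Without overexpression replicate 1 it was -0.14 (BH-adjusted p = 0.0262, edgeR), and over all alternatives the adjusted p ran from 0.0262 to 0.418.

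STAT2 and IRF9 are subunits of ISGF3, IRF9 being the part that recognises the DNA. STAT2 had 56.7, 57.7 and 61.0 CPM in controls and 80.6, 86.9 and 75.3 CPM with overexpression, without overlap. The mean went from 58.5 ± 2.25 to 81.0 ± 5.80 CPM (SD, n = 3 each), or 0.47 as a log2 fold change (SE 0.06, BH-adjusted p = 4.02e-05, edgeR). IRF9 had 14.1, 17.99 and 16.5 CPM in controls and 33.4, 30.7 and 25.2 CPM with overexpression. Its lowest overexpressing library was 7.24 CPM above its highest control. The mean of IRF9 went from 16.2 ± 1.94 to 29.8 ± 4.14 CPM (SD, n = 3 each), or 0.87 as a log2 fold change (SE 0.11, BH-adjusted p = 2.54e-05, edgeR), and it was called in all 13 alternative fits.

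IRF1 is a transcription factor that is itself an early target of interferon gamma. It had 12.6, 10.8 and 11.4 CPM in controls and 24.6, 22.1 and 19.4 CPM with overexpression, so that the lowest overexpressing library was 6.79 CPM above the highest control. The mean rose from 11.6 ± 0.950 to 22.1 ± 2.60 CPM (SD, n = 3 each). The log2 fold change was 0.92 (SE 0.11, BH-adjusted p = 8.74e-06, edgeR) and stayed between 0.84 and 1.01 over 13 alternative fits. GENCODE 44 places an antisense long non-coding gene, CARINH (IRF1-AS1), over IRF1, and the counting is not stated to use strand. CARINH, looked up for that overlap, had 1.22 CPM in controls and 1.59 CPM with overexpression on average (log2 fold change 0.36, BH-adjusted p = 0.273, edgeR), with groups that overlapped. A protein-coding gene model without a symbol also lies over the whole of IRF1, 9165 bp on the opposite strand, and reads of the 2 cannot be told apart without strand.

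The promoters of IRF1 and IRF9 are shown because these 2 transcripts were the members called higher and their windows were the only ones among those of the members to hold a searched motif. Each window is a RefSeq sequence of GRCh38.p14 from 250 bases before to 50 bases after a transcript start, read 5′ to 3′ on the gene's strand. The IRF1 window is chr5:132490724-132491023 on the minus strand and the IRF9 window chr14:24161015-24161314 on the plus strand. Capitals mark a match to the GAS-type letters TTCNNNGAA, which read the same on both strands.
IRF1 promoter: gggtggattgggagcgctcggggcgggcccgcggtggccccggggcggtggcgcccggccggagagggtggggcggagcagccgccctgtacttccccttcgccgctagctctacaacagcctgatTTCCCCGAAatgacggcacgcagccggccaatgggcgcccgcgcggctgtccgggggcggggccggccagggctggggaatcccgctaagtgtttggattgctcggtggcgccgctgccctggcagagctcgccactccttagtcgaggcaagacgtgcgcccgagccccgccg
IRF9 promoter: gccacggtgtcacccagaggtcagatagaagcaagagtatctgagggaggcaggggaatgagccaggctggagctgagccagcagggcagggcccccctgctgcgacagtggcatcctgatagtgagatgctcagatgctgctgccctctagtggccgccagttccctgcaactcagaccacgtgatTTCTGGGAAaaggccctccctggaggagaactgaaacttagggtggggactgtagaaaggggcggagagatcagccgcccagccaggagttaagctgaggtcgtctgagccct
The match began 124 bases before the start of IRF1 (TTCCCCGAA) and 63 bases before the start of IRF9 (TTCTGGGAA). A match to these letters was found in 6.23% of 14985 promoter windows of tested genes and in 7.66% of all 35116 windows. The ISRE-type letters GAAANNGAA, searched on both strands, were in 6.53% of the windows of tested genes and in none of the 11 windows matched to IFNAR1, IFNGR1, JAK1, TYK2, STAT2, IRF1 and IRF9. A match is a string of letters and not a bound site, and its absence says only that these letters are not in the window. No window was matched to IFNAR2.

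Ratios of read counts within a library do not depend on how libraries are scaled, and 6 were taken after the values were known, as descriptions with no test. IFNAR1 over JAK1 was 0.564, 0.564 and 0.545 in controls and 1.00, 1.04 and 0.970 with overexpression. The receptor chain and the kinase thus went from unequal to nearly equal read counts. IRF1 over IFNGR1 was 0.449, 0.425 and 0.437 in controls and 1.44, 1.39 and 1.09 with overexpression, below 1 in every control and above 1 in every overexpressing library. IRF9 over STAT2 was 0.250, 0.312 and 0.270 in controls and 0.414, 0.353 and 0.335 with overexpression, apart between the groups. JAK1 over TYK2 went from 0.704 ± 0.0459 to 0.589 ± 0.0470 (SD, n = 3 each), also without overlap. IFNAR1 over IFNAR2 (4.35 ± 0.409 and 4.85 ± 0.762) and IRF1 over IRF9 (0.728 ± 0.151 and 0.743 ± 0.0249) overlapped between the groups. Transcript length enters each ratio equally in all libraries, so the ratios compare libraries and not the abundance of 2 genes.

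**Figure D2:**
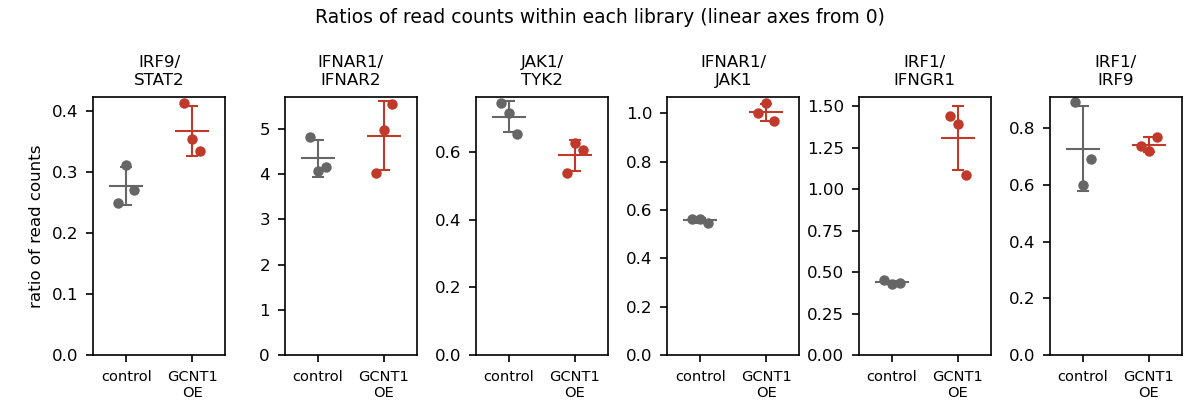
Ratios of read counts of 2 genes in the same library, in controls (grey) and with GCNT1 overexpression (red, OE), on linear axes from 0, with dots for the 3 libraries, and the mean and SD as bars. IFNAR1/JAK1 moves from 0.558 to 1.00 and IRF1/IFNGR1 from 0.437 to 1.31 on average, while IFNAR1/IFNAR2 and IRF1/IRF9 overlap between groups.

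Per kilobase of the longest annotated transcript, TYK2 had the highest level in controls (31.9 ± 1.22 CPM per kb, SD, n = 3) and JAK1 came next (16.5 ± 0.865 CPM per kb). IFNAR1 (11.6 ± 0.825 CPM per kb) and IFNGR1 (10.5 ± 0.577 CPM per kb) had overlapping libraries and were followed by STAT2 (9.13 ± 0.352 CPM per kb), IRF9 (3.52 ± 0.421 CPM per kb), IRF1 (2.25 ± 0.184 CPM per kb) and IFNAR2 (1.83 ± 0.198 CPM per kb). With overexpression the level per kb of IFNAR1 was 16.2 ± 0.928 and that of JAK1 was 12.8 ± 0.479, in the reverse order of the controls, while JAK1 and STAT2 (12.6 ± 0.905) overlapped, as did IFNGR1 (6.73 ± 0.399) and IRF9 (6.47 ± 0.900). The order depended on the transcript taken: with the Ensembl canonical transcript JAK1 had the second highest mean in both groups (25.1 and 19.5 CPM per kb). IRF9, at 9.97 ± 1.19 CPM per kb in controls, moved up to 18.3 ± 2.55 with overexpression. With this length the overexpressing libraries of JAK1 overlapped those of STAT2 and IRF9. TYK2 was first, and IRF1 and IFNAR2 the last pair, with either length.

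The 8 genes lie on 7 chromosomes of hg38 (RefSeq positions): IFNAR2 and IFNAR1 beside each other on chromosome 21, from 33229938 to 33265664 and from 33324395 to 33359864, with IL10RB between them. IFNGR1 is on chromosome 6 (137197484 to 137219385), JAK1 on chromosome 1 (64833229 to 65067746) and TYK2 on chromosome 19 (10350533 to 10380572). STAT2 is on chromosome 12 (56341597 to 56360107), IRF9 on chromosome 14 (24161265 to 24166565) and IRF1 on chromosome 5 (132481609 to 132490773). The 50 tested genes nearest to each were taken, 25 to either side, and their median log2 fold change was set beside that of the member.

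IRF1 and IRF9 moved against their neighbours, and the receptor genes, JAK1 and STAT2 moved with theirs. Around IRF1 the median log2 fold change was -0.11, and 0 of the 50 neighbours had a higher log2 fold change than IRF1. Around IRF9 the median was -0.15, and 2 of 50 were higher, one of them the adjacent gene REC8 at 1.23. Relative to these medians the log2 fold change was 1.02 for each of the 2 genes.

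The type I receptor genes lay among genes that were mostly higher. Around IFNAR1 46 of 50 neighbours had a log2 fold change above 0, with a median of 0.35 and 12 neighbours above IFNAR1. IL10RB, the shared chain of the IL-10 and interferon lambda receptors, had 0.37 and GART, on the other side of IFNAR1, 0.41. The window of IFNAR2 shares 49 genes with that of IFNAR1 and had a median of 0.37, so IFNAR2 was -0.042 relative to it. Around STAT2 42 of 50 neighbours were above 0, the median was 0.29, and 10 neighbours were above STAT2.

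The 2 members that fell lay where the neighbours were lower. Around IFNGR1 the median was -0.41, 38 of 50 neighbours were below 0, and 15 were called lower against 4 called higher. The adjacent IL20RA, a receptor chain for IL-20 family cytokines, had a log2 fold change of -1.72 and the adjacent TNFAIP3, an inhibitor of NF-kB signalling, 0.80. Around JAK1 the median was -0.23 with 38 of 50 below 0, and around TYK2 it was 0.03. Relative to the medians the log2 fold change was 0.14 for IFNAR1, 0.18 for STAT2, -0.24 for IFNGR1, -0.14 for JAK1 and -0.14 for TYK2. In 5 of the 8 genes the median of the neighbours had the sign of the member, and no test was run against the neighbours.

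**Figure D3:**
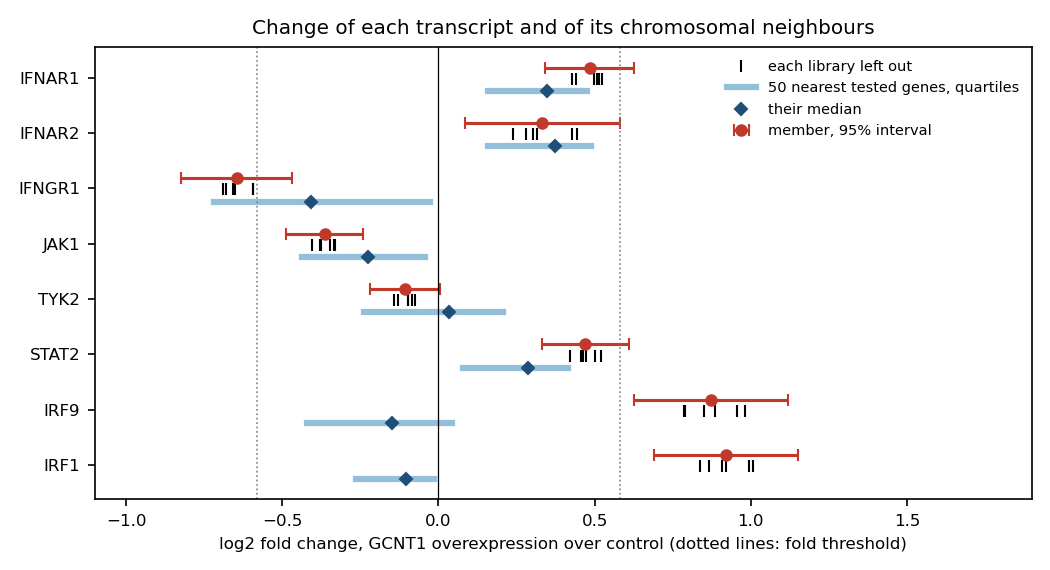
Log2 fold change of each of the 8 genes (red, with 95% interval), the same with each library left out (black ticks), and the median and quartiles of the 50 nearest tested genes (blue), with dotted lines at an absolute value of 0.58. IRF9 and IRF1 lie at 0.87 and 0.92 while their neighbours have medians of -0.15 and -0.11, and the interval of the median's quartiles meets the interval of the gene for the other 6.

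**Figure D4:**
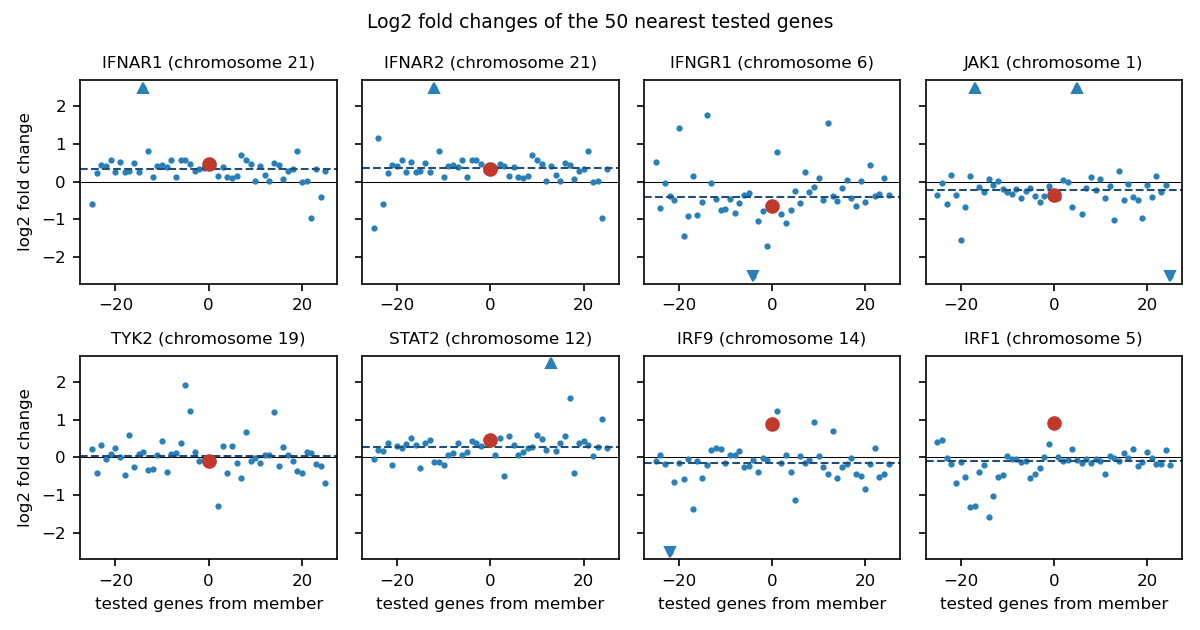
Log2 fold change of the 50 tested genes nearest to each member, ordered along the chromosome and numbered by their distance in tested genes from the member (red, at 0), with the median as a dashed line and triangles for genes beyond 2.5 in absolute value. The points around IFNAR1, IFNAR2 and STAT2 lie mostly above 0 and those around IFNGR1 and JAK1 mostly below, while the IRF1 point stands above all 50 points around it and the IRF9 point above 48 of 50.

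Annotated genes overlap several members, and their reads can be shared. The readthrough gene IFNAR2-IL10RB overlaps IFNAR2 over 35727 bp on the same strand, and LINC01359 lies in the span of JAK1 on the same strand. A protein-coding gene model without a symbol overlaps most of the span of IRF9, over 5188 bp on the same strand. Strand would not tell the reads of these 2 apart. RAVER2, the one overlapping gene besides CARINH with counts here, shares 4 bp with JAK1 on the opposite strand. The counts of the 8 genes ran from 134 to 2351 per library, for which counting alone gives a relative error of 8.64% to 2.06%.

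Other genes of these families included the largest change of any list, that of STAT6. Of 17 other receptor, JAK, STAT and IRF genes 9 were in the table, 1 was called higher and 1 lower, and the median log2 fold change was -0.03. The share called, 22.2%, was near the 19.3% of all genes. STAT6, the STAT of IL-4 and IL-13 signalling, had 21, 21 and 16 reads in the control libraries and 581, 719 and 705 reads in the overexpressing ones. The log2 fold change of STAT6 was 5.01 (SE 0.11, BH-adjusted p = 1.07e-12, edgeR). It lies on chromosome 12 as the 13th tested gene after STAT2. IFNLR1, the specific chain of the interferon lambda receptor, fell to 4.53 ± 0.588 CPM from 8.26 ± 0.993 (SD, n = 3 each, log2 fold change -0.87, BH-adjusted p = 0.000205, edgeR). The 3 other IRF genes tested, relatives of IRF1, are given although none was called. IRF2 and IRF3 had log2 fold changes of -0.05 and -0.03 with 95% intervals from -0.22 to 0.11 and from -0.17 to 0.11. IRF5 had 7.07, 7.07 and 8.20 CPM in controls and 12.4, 8.88 and 9.43 CPM with overexpression, without overlap, and a log2 fold change of 0.45 (SE 0.14, BH-adjusted p = 0.0151, edgeR).

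Negative regulators of the pathway had 18 of 20 genes in the table. None was called higher and 1 was called lower (5.56% against 19.3% of all genes), with a median log2 fold change of -0.01. By adjusted p alone 6 were higher and 6 lower, or 66.7% against 57.6% of all genes. Without control replicate 1 these were 2 and 5, and 3 were higher and 6 lower without GCNT1 overexpression replicate 3, under DESeq2 and with a replicate block. PIAS2, a SUMO ligase of the family that inhibits STAT proteins, fell to 16.1 ± 1.13 CPM from 31.5 ± 1.74 (SD, n = 3 each), or -0.96 as a log2 fold change (BH-adjusted p = 5.15e-07, edgeR).

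Genes that sense nucleic acids and act upstream of IRF3 and IRF7 had 13 of 15 members in the table, 3 called higher and none lower. In either direction that is 23.1% called against 19.3% of all genes. By adjusted p alone it is 61.5% against 57.6%, and both are near the share of all genes. By direction, the 3 called higher stand against 8.28% of all genes called higher. By adjusted p alone 7 were higher and 1 lower, against 28.3% and 29.3% of all genes. IFIH1, the RNA sensor MDA5, had 8.74, 6.43 and 7.36 CPM in controls and 22.8, 21.5 and 22.6 CPM with overexpression (log2 fold change 1.57, BH-adjusted p = 5.81e-08, edgeR). RIGI, the RNA sensor RIG-I, and IKBKE, a kinase that phosphorylates IRF3 and IRF7, had log2 fold changes of 0.75 and 0.74. None of the 10 interferon genes listed was in the table.

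Targets of ISGF3, the antiviral genes that STAT2 and IRF9 act on, were mostly higher. Of 43 listed genes 39 were in the table, and 23 were called higher and none lower, against 8.28% and 11.1% of all genes. By adjusted p alone 35 were higher and 1 lower, against 28.3% and 29.3% of all genes, and the median log2 fold change was 0.82. MX1, a dynamin-like GTPase that blocks viruses, had 3.34, 3.13 and 3.72 CPM in controls and 43.5, 46.8 and 35.3 CPM with overexpression, or 3.62 as a log2 fold change (SE 0.14, BH-adjusted p = 2.22e-10, edgeR). OASL, a relative of the oligoadenylate synthetases, rose from 16.7 ± 0.977 to 70.9 ± 3.32 CPM (SD, n = 3 each). MX2 had 5, 3 and 6 reads in the control libraries and 40, 22 and 29 reads in the overexpressing ones. Several of these genes respond to IRF1 as well, so the list is not specific to ISGF3.

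Genes typical of interferon gamma and IRF1 had 12 of 23 members in the table, 1 called higher and 1 lower (16.7% against 19.3% of all genes), with a median log2 fold change of 0.23. TAP1, TAP2, TAPBP, PSMB8, PSMB9, CIITA, IDO1, GBP5, CXCL9, CXCL10 and CXCL11 had no row. The counts of this list do not cover these targets, and a missing row does not show that a gene was silent. By adjusted p alone 6 were higher and 1 lower, or 58.3% against 57.6% of all genes. With library size alone as the scaling 3 were called higher and 1 lower. NLRC5, a transactivator of MHC class I genes, rose from 2.14 ± 0.173 to 5.97 ± 1.16 CPM (SD, n = 3 each; log2 fold change 1.46, BH-adjusted p = 2.86e-05, edgeR). GBP1, a guanylate-binding protein induced by interferon gamma, fell to 1.35 ± 0.485 CPM from 3.15 ± 0.504 (log2 fold change -1.22, BH-adjusted p = 0.00125, edgeR). The number called in this list was 4 without GCNT1 overexpression replicate 1. Whether the 2 target lists differ from each other was not tested.

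Cytokine receptors outside the interferon family that also use JAK1 or TYK2 had 10 of 13 genes in the table, 2 called lower and none higher, with a median log2 fold change of -0.16. The share called, 20%, was near the 19.3% of all genes. LIFR, a receptor chain for leukaemia inhibitory factor, had 105, 99.8 and 87.6 CPM in controls and 40.8, 50.4 and 52.2 CPM with overexpression (log2 fold change -1.03, BH-adjusted p = 6.73e-07, edgeR). The other was IL20RA, the neighbour of IFNGR1, with 15, 19 and 13 reads in the control libraries and 6, 7 and 2 reads in the overexpressing ones.

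**Figure D5:**
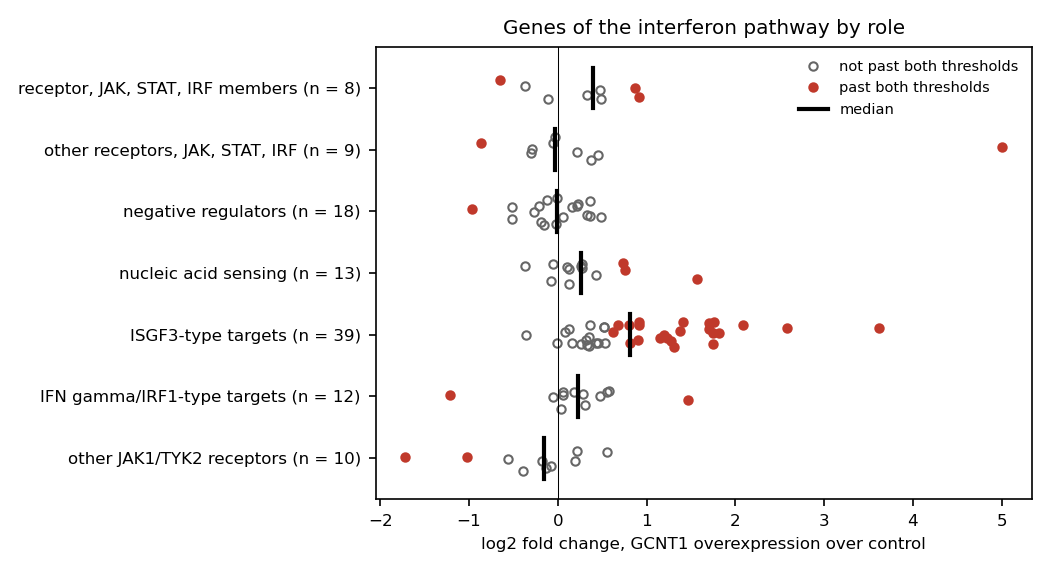
Log2 fold changes of the tested genes of each pathway list, with filled red dots for genes past both thresholds, open grey dots for the others, and a black bar at the median. The median is 0.82 for the 39 ISGF3-type targets and 0.40 for the 8 receptor, JAK, STAT and IRF members, and between -0.16 and 0.26 for the other lists.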

How the data were processed

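Messenger RNA of 6 stable PC3 lines, 3 of each group, was sequenced. The counts the authors deposited are raw reads per Entrez gene, not normalized and not pooled, made with featureCounts after Cutadapt trimming and HISAT2 alignment (hg38). The annotation, the strand setting and the filter on low counts are not given in the sources used here. The lowest third-highest value of any of the 12703 genes was 1.01 CPM. Libraries of a group differed by more than sampling noise (chi-square per degree of freedom 1.65 to 5.65) and each was 1 sample.

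Symbols of 12661 genes were taken from RefSeq (GRCh38.p14). The counts were fitted once over all genes in R 4.3.3 with edgeR 4.0.16 (filterByExpr, which kept every gene, TMM factors, quasi-likelihood test without a replicate block, Benjamini-Hochberg adjustment). Standard errors were derived from the quasi-likelihood statistic. The thresholds were those the study used, 0.05 for the adjusted p and 0.58 for the absolute log2 fold change. Alternatives were other tools (limma-voom in limma 3.58.1, DESeq2 1.42.0, glmTreat), other scaling (RLE, library size alone), other filters (none, or 10 counts in every library), a block for the replicate number, and the omission of each library in turn. The edgeR, limma-voom and DESeq2 steps were tested on counts simulated from these libraries with known changes. Neighbours and promoter motifs were computed in Python 3.11.15. Transcript lengths and overlaps are from GENCODE 44.

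The members and gene lists were chosen with earlier results of these data known. Named genes are all members, GCNT1 and, of each list, up to 3 called genes with the largest change whose groups do not overlap. Beyond that rule, genes adjacent to or overlapping a member, cell type markers, the other IRF genes, JAK2, OSMR and IL27RA were named after their values were seen. The canonical transcript length was an alternative added after the data were seen. With 3 libraries against 3, an exact permutation test of a single value cannot go below p = 0.10 and was not used. Intervals and counting errors cover what they state and no bias of the counting. Protein sequences were not used here, and some results are not reported here.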

Additional observations from a re-analysis of the deposited data

How the results depend on the processing

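IFNAR1, IFNGR1, JAK1, STAT2, IRF1 and IRF9 kept their direction and their side of the adjusted p threshold in all 13 refits. IFNAR2 ran from 0.24 to 0.45 (log2) and TYK2 from -0.14 to -0.076 with single libraries left out, and both crossed the threshold in some of these fits, as did GCNT1, which ran from 0.49 to 1.21. Under DESeq2 GCNT1 had a log2 fold change of 0.98 with an adjusted p of 0.0821 (Benjamini-Hochberg). Relative to the 50 nearest tested genes, IFNAR2 reversed to -0.042, and IFNAR1 moved to 0.14, IFNGR1 to -0.24, JAK1 to -0.14 and STAT2 to 0.18; the cause was not tested. glmTreat, a stricter test by construction, called 1392 genes in place of 2457, 1 in place of 2 among the other receptor, JAK, STAT and IRF genes, and 1 in place of 3 among the sensing genes. The interferon gamma and IRF1-type list had 4 genes called with library size alone and 2 to 4 with single libraries left out, and the cause was not tested. At least 10 counts in every library left 1 called gene among the other JAK1 or TYK2 receptors, since IL20RA is then not tested. The ISGF3-type targets had 20 to 25 genes called over all alternatives.

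With library size alone the median of all genes was 0.06. No pairing by replicate number was seen: deviations of same-numbered libraries had correlations of -0.273, -0.00240 and -0.109, and no library correlated best with its own number. The deviations were taken from the mean of each group of 3 and so depend on each other. These correlations cannot show whether same-numbered libraries were prepared together. A replicate block left 2423 genes called in place of 2457. It changed no call among the 8 members, with 3 called and 7 past the adjusted p. The number called in each pathway list was also the same. By adjusted p alone the negative regulators went from 12 to 9 and the ISGF3-type targets from 36 to 34.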

Other observations

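JAK2, which interferon gamma receptors use beside JAK1, had 21.9, 25.2 and 21.6 CPM in the control libraries and no more than 21.0 CPM in the GCNT1 overexpressing libraries, with the lowest value in replicate 1, and was picked out after its values were seen. Its log2 fold change was -0.30 (BH-adjusted p = 0.0555, edgeR), and its groups did not overlap. OSMR, the oncostatin M receptor chain, which also signals through JAK1, fell to 78.7 ± 3.18 CPM from 116 ± 3.19 (SD, n = 3 each), or -0.56 as a log2 fold change (BH-adjusted p = 1.61e-06, edgeR) just under the fold threshold. IL27RA, a chain of the IL-27 receptor, rose from 34.1 ± 1.03 to 49.9 ± 3.82 CPM (log2 fold change 0.55, BH-adjusted p = 2.42e-05, edgeR). Both were likewise picked out after their values were seen.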
